A study of Mus musculus with 8 samples.

Results

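Calcium release and uptake in skeletal muscle were followed through 10 genes: Cacna1s, Ryr1, Jph1, Trdn, Casq1, Casq2, Srl, Atp2a1, Atp2a2 and Pvalb. The members were all alternative polyadenylation sites (APSs, positions where the poly(A) tail of an RNA starts) whose gene symbol was one of these names. They came to 370 of the 56483 APSs in the deposited table, and to 10 of its 15349 genes. Of the 370 sites, 362 lay on the strand of their gene and 8 on the opposite strand.

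Gastrocnemius muscle of male mice was profiled by WTTS-seq, which sequences the 3′ ends of polyadenylated RNA, with 1 library per mouse. The AMPKα1 model had 2 AMPKα1-/- mice (AMPKα1 KO) of about 6 weeks and 2 wild-type (WT) mice, and the AMPKα2 model had 2 AMPKα2-/- mice (AMPKα2 KO) of about 8 weeks and 2 WT mice. In these mice a catalytic subunit of the energy sensor AMPK is missing from the whole body, and no age was given for the WT mice. The labels named C57BL/6 as the background of every sample, whereas the study's methods gave 129S2/SvPas for AMPKα1 KO and C57BL/6 for AMPKα2 KO. Model, strain, age and any preparation batch therefore cannot be told apart between the 2 models, and each KO group was compared with the WT group of its own model.

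The libraries held 2311242 to 3549156 reads, so that 3 reads, the limit that a count of 0 allows, corresponded to 0.845 to 1.30 CPM (read counts scaled to a common library size, here by library totals). Reads assigned to no gene made up 1.88% to 2.85% of the AMPKα1 libraries and 15.3% to 17.9% of the AMPKα2 libraries. Fast-fiber genes had reads in every library, and the tissue label was met. The targeted genes did not settle the labels, and 1 library labelled AMPKα1 KO had reads at the targeted gene. The study's text places the AMPKα1 deletion, and that of AMPKα2, in codons of the catalytic domain. The single same-strand Prkaa1 (AMPKα1) site (chr15, position 5163362) was intronic and lay between the first and last deleted codons. It had 0 and 82 reads in the libraries labelled AMPKα1 KO 1 and KO 2 against 15 and 0 in WT 1 and WT 2. Whether the introns of that stretch were removed was not given in the sources used here, so these reads neither bear out nor refute a label. All 7 Prkaa2 (AMPKα2) sites lay outside the deleted codons and checked nothing, with summed levels of 25.5 and 28.1 CPM in AMPKα2 KO against 25.5 and 29.4 CPM in WT. The AMPKα1 KO group is therefore named by its label, and its results are also given without the library labelled KO 2.

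In a muscle fiber, depolarization of the transverse tubule is sensed by the voltage sensor Cacna1s, which opens the release channel Ryr1 in the membrane of the sarcoplasmic reticulum. Junctophilin (Jph1) and triadin (Trdn) hold this junction together, calsequestrins (Casq1 in fast fibers, Casq2 mainly in slow fibers and heart) and sarcalumenin (Srl) bind calcium inside the store, and the SERCA pumps (Atp2a1 in fast fibers, Atp2a2 in slow fibers) return it there. Parvalbumin (Pvalb) buffers calcium in the cytosol of fast fibers.

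Each same-strand site was called terminal when it lay in the last exon of a protein-coding transcript of the GENCODE release M21 annotation (GRCm38) or within 2 kb past the gene end, and internal otherwise. There were 44 terminal and 318 internal sites. The following 30-base stretches end at the terminal site with the most reads of each gene, or at the nearest transcript end. For Atp2a2 the stretch at the end of the longer protein, an internal site by this rule, was added. The stretches show which ends carry the classical signal of cleavage and polyadenylation, with AATAAA or ATTAAA in capitals. They are taken 5′ to 3′ on the strand of the gene from the GENCODE M21 transcripts, with coordinates on GRCm38.
Ryr1, chr7:29003344-29003373, minus strand: ctagaccAATAAAtcctgtgctacaccccc
Cacna1s, chr1:136119503-136119532, plus strand: ATTAAAgtctccaggcctgactttggcacc
Jph1, chr1:16994941-16994970, minus strand: ctgccctAATAAAaatgttggttattaata
Casq1, chr1:172209894-172209923, minus strand: gccttAATAAAgaaatctggggcagaatga
Casq2, chr3:102146473-102146502, plus strand: aatagtAATAAActaatggacattagactc
Srl, chr16:4480216-4480245, minus strand: agaacgtctcAATAAAgttccaatctctct
Atp2a1, chr7:126445858-126445887, minus strand: tttattgaaAATAAAtgacagaaaagtctg
Atp2a2, end of the shorter protein, chr5:122453521-122453550, minus strand: atttcaggtaAATAAAtctattctacgata
Atp2a2, end of the longer protein, chr5:122456332-122456361, minus strand: gaaaAATAAAacattttaaatggacagaga
Pvalb, chr15:78191119-78191148, minus strand: ctttgctgtgataaaatacctgaaaagaga
Trdn, chr10:33233901-33233930, plus strand: tgctttgtcaacaacggcccttgaaggcaa

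The stretches of Pvalb and Trdn held neither hexamer. By contrast, the internal Ryr1 site with the most reads lies in coding sequence and has no hexamer in its 30 bases. Its stretch is shown because the site had 18773 reads over the 8 libraries, against 22393 at the gene end. In every AMPKα2 library it stayed below the gene end.
Ryr1 internal, chr7:29069036-29069065, minus strand: ggccagggaaggcgaggaggagaagacgga

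One of the hexamers stood in 11 of 37 terminal member stretches that could be read from a transcript (29.7%) and in 4 of 124 internal ones (3.23%). Over all protein-coding genes the shares were 58.1% of 16688 terminal and 10.6% of 5805 internal stretches of the same length, read on the sense strand alone. A match or its absence describes these letters only. Intronic windows were not read.

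**Figure D1:**
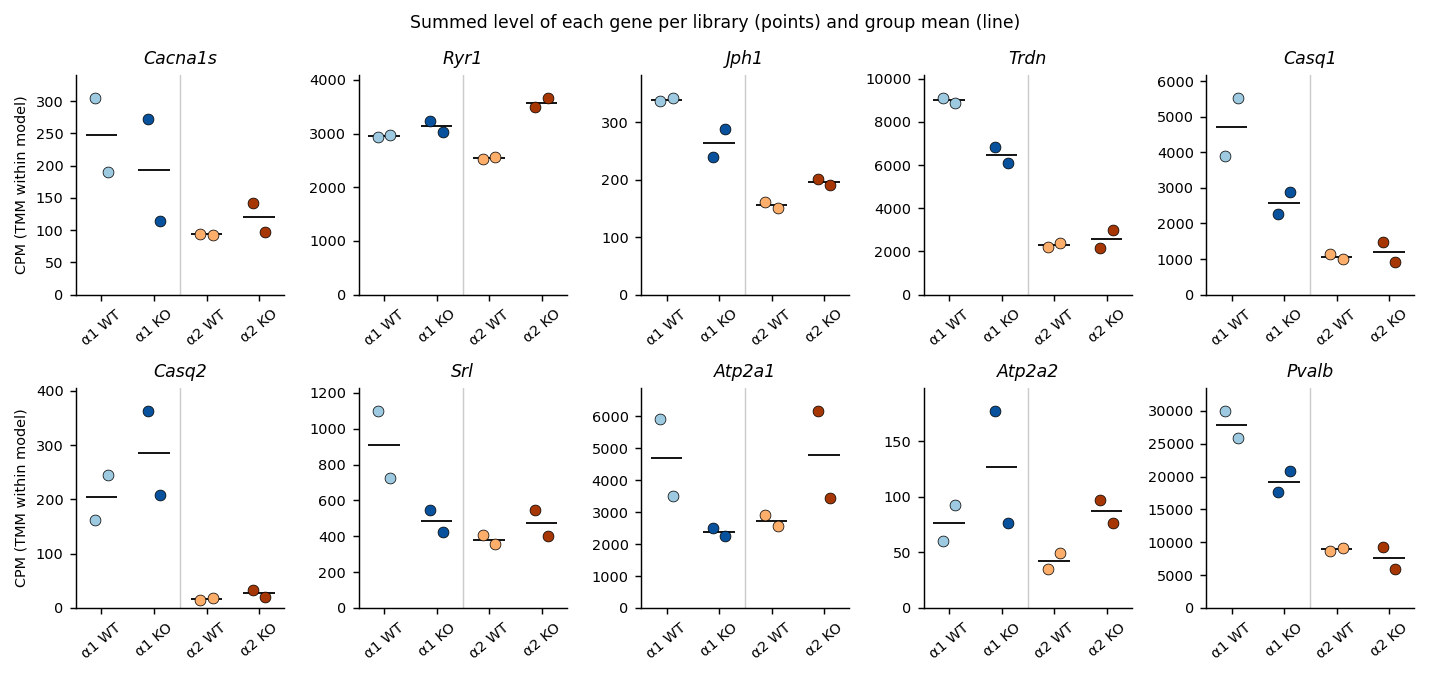
Level of each gene (CPM, all APSs summed, scaled by TMM within each model) in the 8 libraries, with the group mean as a line and each axis starting at 0. In the AMPKα2 model both KO points of Atp2a2 (76.3 and 97.5 CPM) lie above both WT points (35.2 and 49.3 CPM); CPM of different models are not on 1 scale.

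The first comparison asked whether loss of AMPKα1 or AMPKα2 went with another RNA level of the calcium genes, with all APSs of a gene summed. No member passed an adjusted p of 0.1 in either model by edgeR's quasi-likelihood test. Over all genes 0 of 13924 passed in the AMPKα1 model (percent called 0.0), where 589 had an unadjusted p under 0.05 and DESeq2 called 115. In the AMPKα2 model 51 of 10536 passed (0.484%), 27 higher and 24 lower in KO. Among the 10 members, 2 in each model had an unadjusted p under 0.05, a share of 4.23% (AMPKα1) and 8.44% (AMPKα2) over all genes, and DESeq2 called 0 of 10 in both, against 1.14% and 1.27% of all genes that received an adjusted p. In these bulk samples fewer fibers of a type and less RNA per fiber cannot be told apart. Nothing says that the mice of a group came from separate litters or cages, and the p-values measure the spread between these samples.

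The voltage sensor and the release channel came first. Cacna1s, the voltage sensor of the transverse tubule, had 114 and 273 CPM in libraries labelled AMPKα1 KO against 189.6 and 305 in WT. It had 97.7 and 142 CPM in AMPKα2 KO against 92.4 and 94.5 in WT. The AMPKα1 groups overlapped, and in the AMPKα2 model both KO libraries lay above both WT libraries by a log2 fold change of 0.35 (SE 0.26, adjusted p = 0.743 by edgeR). Ryr1, the release channel, had 3034 and 3241 CPM in libraries labelled AMPKα1 KO against 2947 and 2970 in WT, a log2 fold change of 0.08 (SE 0.30, adjusted p = 0.999). In AMPKα2 KO it had 3489.9 and 3662 CPM against 2534 and 2564 in WT. Both KO libraries were the higher ones, with a log2 fold change of 0.49 (SE 0.28, adjusted p = 0.674). Over the terminal site alone that value was 0.18 (SE 0.25, adjusted p = 0.895).

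Among the junction proteins, Jph1, which bridges the transverse tubule and the sarcoplasmic reticulum, had 240.5 and 288 CPM in libraries labelled AMPKα1 KO against 337 and 342 in WT. In AMPKα2 KO it had 191 and 202 CPM against 151 and 161 in WT. The groups did not overlap in either model, with KO lower in the first (log2 fold change -0.36, SE 0.37, adjusted p = 0.936) and higher in the second (0.33, SE 0.23, adjusted p = 0.736). Trdn, the triadin gene that anchors calsequestrin to the release channel, had 6100.1 and 6827 CPM in libraries labelled AMPKα1 KO against 8901 and 9105 in WT. Both KO libraries were below WT (log2 fold change -0.48, SE 0.29, adjusted p = 0.763). Trdn overlapped in the AMPKα2 model, with 2138 and 2973 CPM in KO against 2184 and 2374 in WT.

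The store proteins came next. Casq1, the calsequestrin of fast fibers, had 2276 and 2878 CPM in libraries labelled AMPKα1 KO against 3889.7 and 5520.1 in WT. The log2 fold change was -0.87 (SE 0.35, unadjusted p = 0.0442, adjusted p = 0.763). The levels overlapped in the AMPKα2 model, at 906 and 1471 CPM in KO against 992 and 1136 in WT. Casq2, the calsequestrin typical of slow fibers, had 208 and 362 CPM in libraries labelled AMPKα1 KO against 163 and 244 in WT, and these groups overlapped (log2 fold change 0.48, SE 0.46, adjusted p = 0.912). In AMPKα2 KO it had 20.2 and 33.1 CPM against 14.1 and 18.0 in WT, from 38 to 52 reads per library. Both KO libraries were above WT there, with a log2 fold change of 0.72 (SE 0.34, adjusted p = 0.613). Srl, which encodes sarcalumenin, had 424 and 545 CPM in libraries labelled AMPKα1 KO against 724 and 1097 in WT. The KO libraries were the lower ones (log2 fold change -0.91, SE 0.39, adjusted p = 0.763). In AMPKα2 KO the levels of 404 and 544 CPM overlapped those of 355 and 408 in WT.

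The pump genes gave the largest log2 fold change of the 10 in each model, Atp2a1 in libraries labelled AMPKα1 KO and Atp2a2 in AMPKα2 KO, and neither passed. Atp2a1 (SERCA1, the fast-fiber pump) had 2247 and 2496 CPM in libraries labelled AMPKα1 KO against 3504 and 5914 in WT. It had 3449 and 6157 CPM in AMPKα2 KO against 2565 and 2903 in WT. The groups did not overlap in either model, and the log2 fold changes had opposite signs, -0.99 (SE 0.37, unadjusted p = 0.0361, adjusted p = 0.763) and 0.81 (SE 0.34, unadjusted p = 0.0383, adjusted p = 0.571). The difference between these effects, fitted by edgeR over all 8 libraries, was 1.78 (SE 0.55, unadjusted p = 0.0094, adjusted p = 0.519) and missed the threshold. Atp2a2 (SERCA2, the pump of slow fibers) had 76.8 and 177 CPM in libraries labelled AMPKα1 KO against 60.6 and 92.5 in WT, and these overlapped (log2 fold change 0.73, SE 0.57, adjusted p = 0.819). In AMPKα2 KO both libraries, at 76.3 and 97.5 CPM, lay above the WT values of 35.2 and 49.3. The log2 fold change of 1.04 (SE 0.28, unadjusted p = 0.00314, adjusted p = 0.253) missed the threshold by edgeR. With no filter on low counts the adjusted p by edgeR was 0.0194. Of 11 settings this was the only one in which it passed, and more genes passed in all under that setting.

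Pvalb, the cytosolic calcium buffer of fast fibers, had 17682 and 20781 CPM in libraries labelled AMPKα1 KO against 25860.4 and 29927 in WT. In AMPKα2 KO it had 5990.2 and 9213 CPM against 8664 and 9196 in WT. KO was below WT in the first model (log2 fold change -0.54, SE 0.28, adjusted p = 0.763), whereas the second overlapped (-0.23, SE 0.34, adjusted p = 0.900).

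Without the library labelled AMPKα1 KO 2, where the lone KO library is assumed to vary like the WT group, 0 of the 10 members passed by edgeR. The log2 fold change of Cacna1s turned from -0.35 to 0.14, and the other 9 kept their sign. Those of Atp2a1, Casq1 and Srl were -0.92, -1.05 and -0.75, and those of Jph1, Trdn and Pvalb were -0.50, -0.40 and -0.66. Atp2a2 stood at 1.20, Casq2 at 0.82 and Ryr1 at 0.13.

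**Figure D2:**
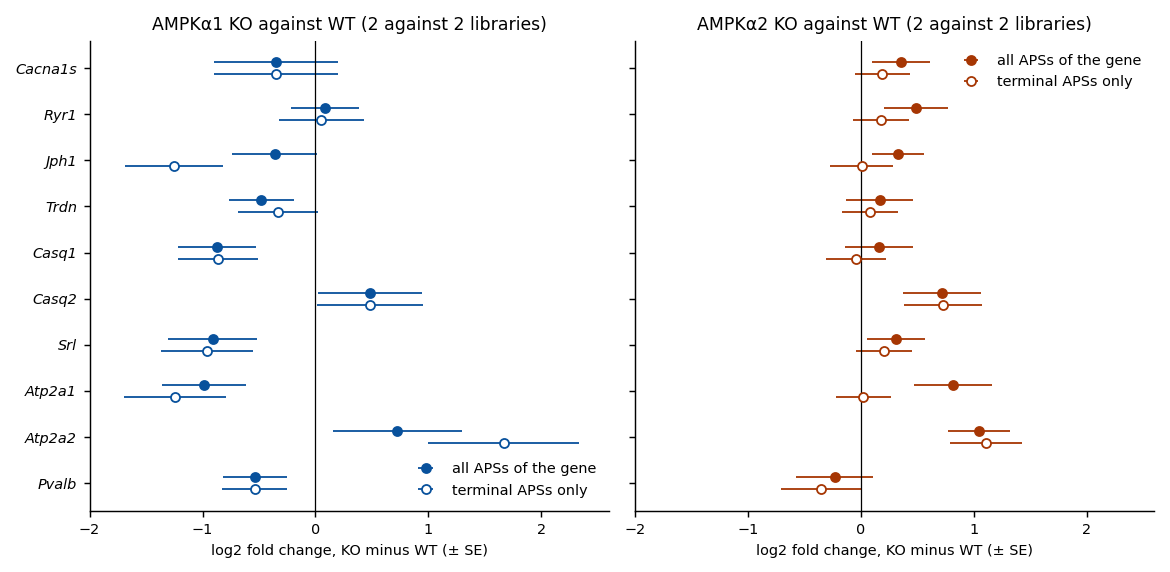
Log2 fold change of each gene, KO minus WT, with its SE (edgeR, 2 against 2 libraries), for all APSs (filled) and for terminal APSs alone (open). In AMPKα2 KO, Atp2a1 stands at 0.81 over all APSs and at 0.02 over its terminal APS, and Atp2a2 stands at 1.04 and 1.11; no value passed an adjusted p of 0.1.

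By the levels alone, 6 of 10 members had both libraries labelled AMPKα1 KO below both WT libraries (Jph1, Trdn, Casq1, Srl, Atp2a1, Pvalb; 18.9% of all genes tested) and 1 had both above (Ryr1; 13.6%). In the AMPKα2 model 6 of 10 had both KO libraries above (Ryr1, Cacna1s, Jph1, Casq2, Atp2a1, Atp2a2; 18.7%) and 0 both below (20.5%). With library totals as the scaling these became 4 below (14.2% of all genes) and 1 above (18.5%) in the AMPKα1 model, and 3 above (10.2%) and 1 below (23.0%) in the AMPKα2 model. The 3 that stayed above in AMPKα2 KO were Casq2, Atp2a1 and Atp2a2. That scaling moved the median of all genes from -0.03 to 0.22 (AMPKα1) and from -0.01 to -0.19 (AMPKα2). The members had a median log2 fold change of -0.42 (AMPKα1) and 0.34 (AMPKα2). All 10 differences between the models' effects were positive (median 0.65, against 0.04 over 15349 genes), and none passed by edgeR, where 2 had an unadjusted p under 0.05 and 9 genes in all passed (0.0586%). DESeq2 called none of the 10 differences either (1.62% of all genes). Without the library labelled AMPKα1 KO 2 the differences of Casq2 and Atp2a2 were negative (-0.26 and -0.32). A positive difference was not particular to the members. All 8 fast-fiber genes (median 1.05), 4 erythroid genes (0.95) and 4 fibroblast genes (0.76) had one too. Slow-fiber genes (4 of 7 positive) and other calcium handling genes (27 of 46) had both signs, and the 3 adipocyte genes tested were negative.

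Genes that mark slow fibers had higher values in KO beside those of Casq2 and Atp2a2, and none passed an adjusted p of 0.1. The summed level of the 7 slow-fiber genes was 2589.8 and 2670.1 CPM in AMPKα2 KO against 800.5 and 1695 CPM in WT. All 7 had a positive log2 fold change in AMPKα2 KO, and 6 had an unadjusted p under 0.05, among them the slow myosin heavy chain Myh7 (1.34, SE 0.35, adjusted p = 0.253) and the slow troponin T Tnnt1 (1.33, SE 0.42, adjusted p = 0.418). In libraries labelled AMPKα1 KO the sum was 2601 and 6126 CPM against 1798 and 2256 CPM, with 5 of 7 positive, Myh7 at 1.52 (SE 0.39, adjusted p = 0.763), and Tnnc1 (-0.13) and Tnnt1 (-0.01) negative. None of the 7 was at 0 in any library. The 8 fast-fiber genes were all negative in libraries labelled AMPKα1 KO (median -0.93), with a summed level of 69796 and 81263 CPM against 94839 and 175375 CPM in WT, beside the lower values of Atp2a1, Casq1 and Pvalb. In AMPKα2 KO 6 of the 8 were positive (median 0.14). Markers of other cells differed as well, none past an adjusted p of 0.1. In libraries labelled AMPKα1 KO the 3 adipocyte genes tested were positive (median 1.14), with sums of 286 and 1677 CPM against 350.2 and 509.7 CPM in WT, the highest in KO 2. The 3 Schwann cell genes were negative (median -1.69), with 472 and 583 CPM against 664 and 1296 CPM. The 4 erythroid genes were negative too (median -0.37). Of 4 general muscle genes (Acta1, Ckm, Des and Myod1), 3 were negative (median -0.25). In AMPKα2 KO the 4 fibroblast genes (median 0.51, sums of 2115 and 3636 against 1683 and 2215 CPM) and the 4 erythroid genes (median 0.42, sums of 968 and 1482 against 746 and 1128 CPM) were all positive. The 4 macrophage genes tested (median -0.22) and the 3 Schwann cell genes (median -0.15) were all negative there. Of the general muscle genes 2 were positive and 2 negative (median 0.30). Lists not named for a model had both signs. The part of fiber makeup and of other cells in the calcium gene values was not tested.

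Other genes of calcium handling were taken from a list of 50, of which 46 had an APS in the table. None of the 46 tested in the AMPKα1 model and of the 44 tested in the AMPKα2 model passed an adjusted p of 0.1 by edgeR. DESeq2 called 0 in both models, and at an unadjusted p under 0.05 by edgeR stood 0 and 4 of them. The 4 in AMPKα2 KO belonged to the triad and release group, with Ryr3, a second ryanodine receptor gene, at 18.5 and 15.4 CPM in KO against 7.0 and 6.6 CPM in WT (log2 fold change 1.29, SE 0.37, adjusted p = 0.297). Stac3, which couples the voltage sensor to the release channel, stood at 0.77 (SE 0.27, adjusted p = 0.418). Ryr2, the cardiac receptor gene, stood at 1.63 (SE 0.55, adjusted p = 0.418), with 61 reads in 1 KO library and 11 in the other. Cacna2d1, an accessory subunit of the voltage sensor, was the fourth at 0.56. In libraries labelled AMPKα1 KO the lowest p-values belonged to Smdt1, a subunit of the mitochondrial uniporter (-1.22, SE 0.59, adjusted p = 0.763), to Ryr3 (1.53, SE 0.81) and to Mrln, a SERCA inhibitor (-1.01, SE 0.60). The list had a median of -0.21 (AMPKα1) and 0.07 (AMPKα2), against -0.03 and -0.01 over all genes.

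The second comparison concerned where the RNAs of each gene ended. In the AMPKα1 libraries some genes ended nearly always at 1 place. There the largest site took 98.7% to 99.2% of the Pvalb reads, 97.7% to 99.6% for Casq1, 94.6% or more for Cacna1s and 85.6% to 91.9% for Srl. The same sites took 76.9% to 91.8%, 48.3% to 78.0%, 48.4% to 69.7% and 46.8% to 71.2% in the AMPKα2 libraries. Ryr1 and Trdn were spread over 116 and 111 same-strand sites, of which the largest took 33.5% and 13.7% of the reads over the 8 libraries.

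**Figure D3:**
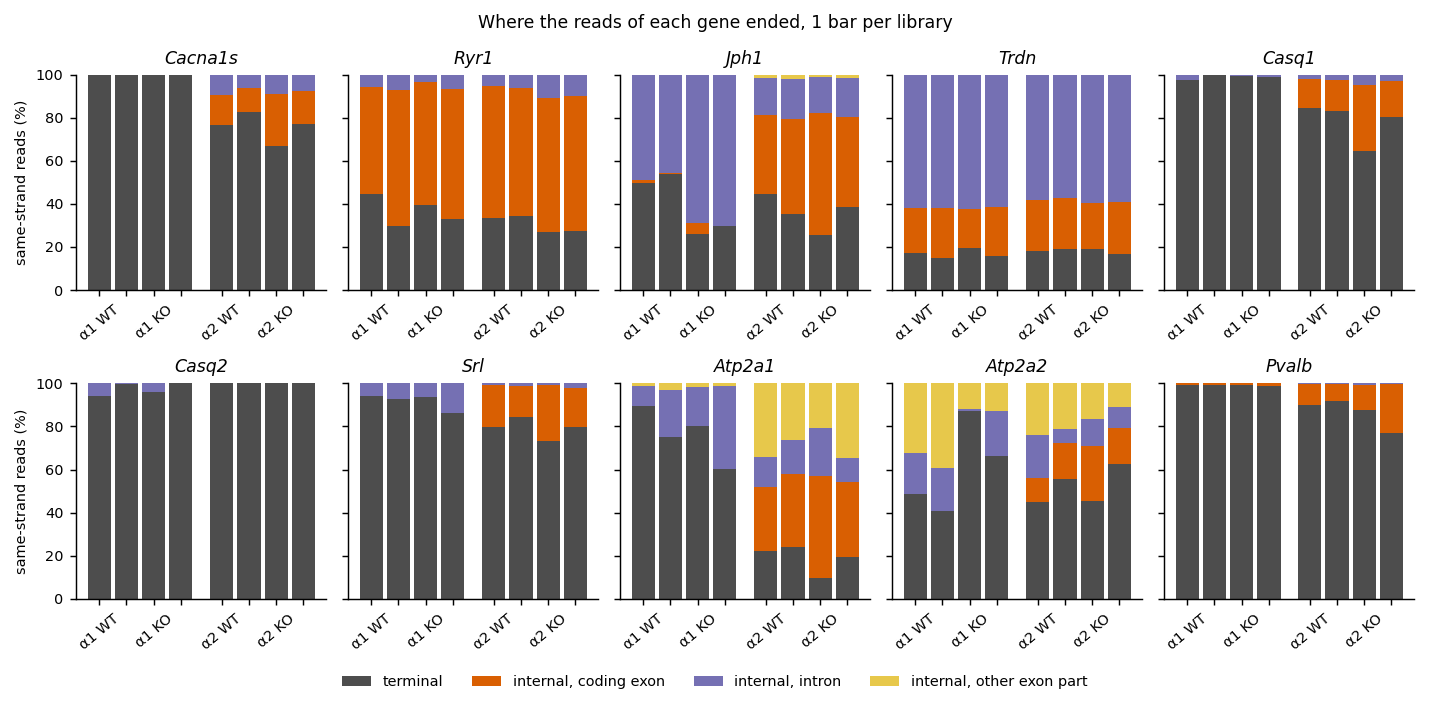
Share of the same-strand reads of each gene (%) by the place of the APS, 1 stacked bar per library in the order WT, WT, KO, KO of each model. In the AMPKα1 model Cacna1s is terminal throughout and Atp2a1 is 60.4% to 89.7% terminal; in the AMPKα2 model coding exons hold a larger part and Atp2a1 is 9.84% to 24.3% terminal.

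The terminal share, the percentage of same-strand reads at terminal sites, differed most between the models in Atp2a1. It was 80.2% and 60.4% in libraries labelled AMPKα1 KO and 89.7% and 75.3% in WT, against 9.84% and 19.6% in AMPKα2 KO and 22.1% and 24.3% in WT. Every AMPKα1 library was above every AMPKα2 library. The same held for Cacna1s (no internal read in any AMPKα1 library, with lower 95% Wilson limits of the share of at least 99.1%, and 66.8% to 82.6% in AMPKα2), Casq1 (97.7% to 99.6% and 64.6% to 84.4%), Srl (86.4% to 94.2% and 73.3% to 84.5%) and Pvalb (98.8% to 99.2% and 77.0% to 91.8%). These were 5 of the 10 members, against 27.8% of 2119 protein-coding genes. Intervals and floors cover counting error only, because PCR copies of a molecule were not told apart. Trdn did not share the pattern, with 14.8% to 19.3% in one model and 16.5% to 19.1% in the other. Casq2 was at least 94.0% terminal in every library. The 2119 genes had median shares of 92.2% to 95.7% in the AMPKα1 libraries and 83.5% to 86.5% in the AMPKα2 libraries.

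Some sites were read in a single model. Of the 362 same-strand member sites, 164 (45.3%) had at least 16 reads in the AMPKα2 libraries and 0 in the AMPKα1 libraries, and 8 (2.21%) had the reverse. Of these 164 sites, 109 (66.5%) lay in coding exons. Over all protein-coding genes 10.8% of 40658 sites were seen in the AMPKα2 libraries alone, and 51.6% of those lay in coding exons. A similar share of these 40658 sites, 9.51%, was seen in the AMPKα1 libraries alone. Ryr1 held 94 of the 164, Atp2a1 16, Srl 15 and Casq1 11. Counted in reads, these sites held 21.2% to 43.8% of the internal member reads of an AMPKα2 library. The share was 96.7% to 99.6% for Casq1 and 89.4% to 96.5% for Srl, all of them for Cacna1s, 30.3% to 55.0% for Atp2a1 and 0.661% to 5.07% for Pvalb. In Pvalb and Atp2a1 the largest internal site was read in both models.

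A usage test of the WT libraries of both models, which compares each site with the other sites of its gene (edgeR's diffSpliceDGE, added after the data were seen), called 133 of 280 member sites at an adjusted p of 0.1, against 14.2% of 26036 sites. A site that entered the table through AMPKα2 reads alone had to differ in that direction, so this count is no evidence of a direction. High shares were also called among fast-fiber (68.7% of 134 sites), slow-fiber (47.1% of 34), general muscle (77.3% of 22) and fibroblast genes (83.8% of 74). Among the other calcium genes the share was 16.6% of 241 sites, and 0 of 6 endothelial sites were called. Of the sites with at least 16 reads in each WT group, a restriction chosen after the values were seen, 14 of 75 member sites passed against 4.01% of 6362 sites. Of these 14, 5 took a larger part of their gene in AMPKα1 WT and 9 in AMPKα2 WT. Reads assigned to no gene, 15.3% to 17.9% against at most 2.85%, differed between the models in the same way, and their part in it was not tested.

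**Figure D4:**
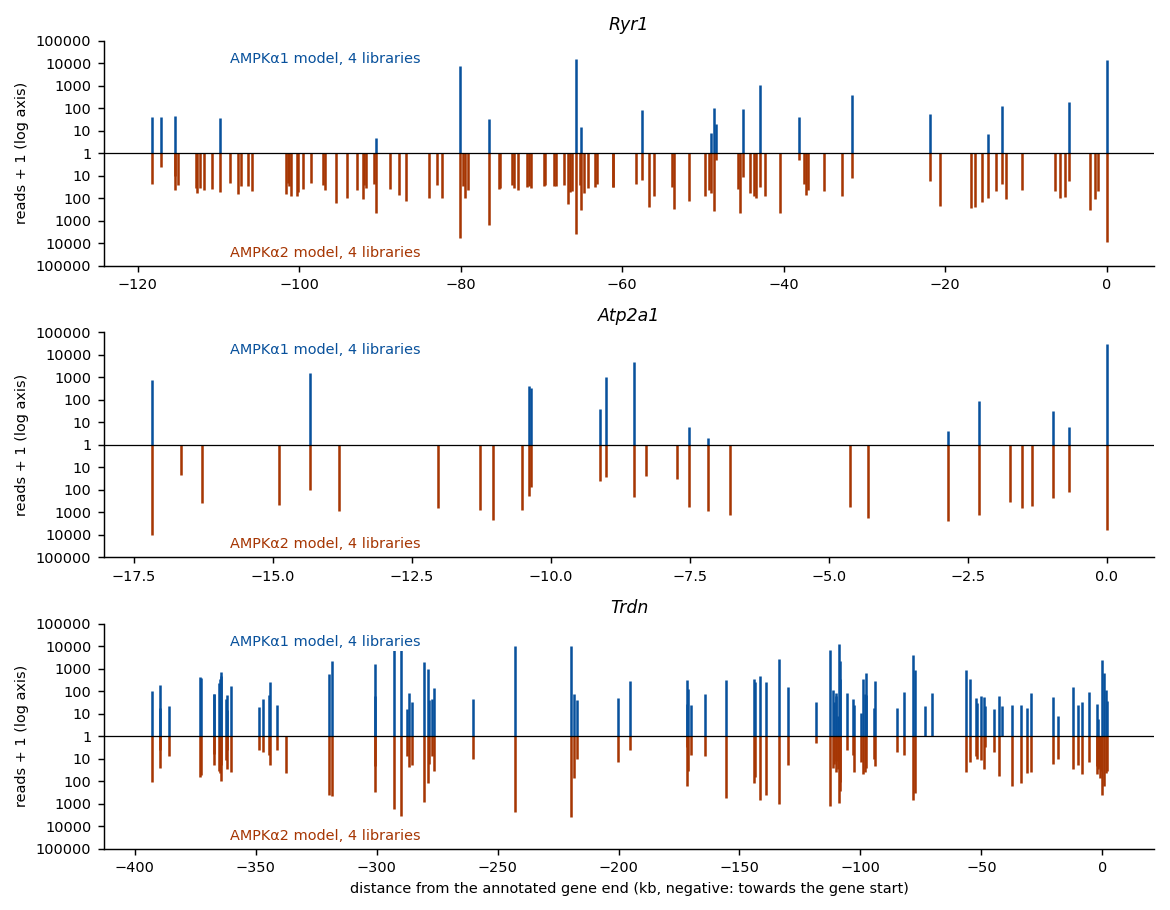
Reads (plus 1, log axis) at each same-strand APS of Ryr1, Atp2a1 and Trdn, summed over the 4 libraries of a model and drawn by distance from the annotated gene end (kb). The AMPKα2 bars below the line show 94 Ryr1 sites with no AMPKα1 counterpart, while 102 of the 111 Trdn sites had reads in both models.

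Single sites showed what was shared and what was not. The end of Ryr1 (chr7, position 29003343) had 4501, 3627, 2415 and 3052 reads in the libraries labelled AMPKα1 KO 1, KO 2, WT 1 and WT 2, and 1484, 2559, 2886 and 1869 reads in AMPKα2 KO 1, KO 2, WT 1 and WT 2. Its largest internal site, at position 29069036 in a coding exon, had 4460, 4504, 1013 and 4849 reads in the same AMPKα1 order and 718, 1242, 1248 and 739 in the AMPKα2 order. Thus in the libraries labelled AMPKα1 KO 2 and WT 2 the internal site exceeded the gene end, and in AMPKα1 WT 1 it stayed below. Position 29069036 lies inside the last exon of a retained-intron transcript of Ryr1 (ENSMUST00000207764.1), and the 30 bases after it were A-rich (at least 7 consecutive A or 8 A within 10 bases). Neither Ryr1 site passed the usage test between the WT libraries of the models (adjusted p = 0.999 and 0.434 by edgeR).

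In Atp2a1, the internal site with the most reads lay at chr7 position 126463037, in a non-coding exon part near the gene start and 17179 bases before the gene end. It had 155, 103, 125 and 387 reads in the AMPKα1 libraries and 2008, 3034, 3386 and 1436 reads in the AMPKα2 libraries, in the order KO 1, KO 2, WT 1, WT 2. The gene end went in the opposite direction, with 7022, 4916, 9704 and 9096 reads in the AMPKα1 libraries and 951, 1708, 2182 and 1314 in the AMPKα2 libraries. Between the WT libraries this site took a smaller part of the gene in the AMPKα1 model (log2 usage -2.79, SE 0.51, adjusted p = 9.1e-05 by edgeR), and the gene end a larger one (1.30, SE 0.46, adjusted p = 0.0746). Within the AMPKα1 model the gene end had a log2 fold change of -1.39 in KO (SE 0.40, adjusted p = 0.543 by edgeR). With 1 library left out at a time, the lone library of a group is assumed to vary like the other group. The log2 fold change then ranged from -1.83, without WT 2, to -0.73, and was -1.19 without KO 2. For the AMPKα2 mice it was -0.11 (SE 0.30, adjusted p = 0.944).

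Trdn was read mostly inside introns in both models. Its leading site, an intronic one at chr10 position 33186723, had 3951, 3285, 2176 and 2986 reads in the AMPKα1 libraries and 524, 1262, 1136 and 735 reads in the AMPKα2 libraries. The leading terminal site, at position 33233930 in the last exon of a short coding transcript (ENSMUST00000219931.1), had 2968, 2336, 1560 and 3394 reads and 306, 659, 816 and 609 reads. Counting the last exon of the longest-reaching transcript alone as terminal, Trdn was 3.67% terminal on average over the 8 libraries.

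Cacna1s, Casq1, Srl, Pvalb and Casq2 had fewer reads at their largest internal site than at the gene end in every library. The largest internal sites of Cacna1s (chr1, position 136113387), Casq1 (chr1, position 172219528) and Srl (chr16, position 4496468), all in coding exons, had 0 reads in the 4 AMPKα1 libraries. In AMPKα2 KO 1, KO 2, WT 1 and WT 2 the Casq1 site had 353, 179, 246 and 171 reads, beside 1114, 1680, 2855 and 1621 at the gene end. The Srl site had 52, 58, 97 and 31 reads and the Cacna1s site 22, 20, 4 and 14. In Pvalb a coding-exon site (chr15, position 78201289) was read in both models, with 447, 812, 498 and 775 reads in the AMPKα1 order and 945, 2310, 1542 and 897 in the AMPKα2 order. The Pvalb end had 61637, 74253, 54197 and 88389 reads in the AMPKα1 libraries and 12630, 11629, 26503 and 17813 in the AMPKα2 libraries. The Casq2 internal site (chr3, position 102122393, intronic) had 32 reads in the library labelled AMPKα1 KO 1, 9 in AMPKα1 WT 1 and 0 elsewhere.

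The third comparison set KO against WT within genes. In the AMPKα1 model, the terminal share of Jph1 was 26.2% and 29.6% in KO (95% Wilson intervals 23.3% to 29.2% and 26.9% to 32.4%) against 49.8% and 54.0% in WT (45.9% to 53.8% and 51.2% to 56.8%). This was the single member with both KO libraries below WT, where 16.5% of 4225 genes had that order. Reads at its largest terminal site (chr1, position 16994941) were 76 and 119 in KO against 202 and 346 in WT (log2 fold change -2.07, SE 0.67, unadjusted p = 0.00689, adjusted p = 0.543 by edgeR). At the largest internal site (position 17094669, intronic) the reads of the groups overlapped. Summed over its terminal sites, Jph1 had a log2 fold change of -1.25 (SE 0.44, adjusted p = 0.762), where all its sites gave -0.36. The library labelled AMPKα1 KO 1 alone was also below both WT libraries in share, and without KO 2 the largest terminal site stood at -2.46 (adjusted p = 0.514). The Jph1 shares overlapped in the AMPKα2 model, at 25.6% and 38.6% in KO and 44.4% and 35.2% in WT.

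Atp2a2 was the single member with both libraries labelled AMPKα1 KO above WT, at 87.3% and 66.2% against 48.6% and 40.6% (7.81% of genes had that order). This rested on how its ends were counted. Atp2a2 has 2 coding transcripts: one of 998 codons (ENSMUST00000177974.7, the SERCA2a form of slow and cardiac muscle) and one of 1044 codons (ENSMUST00000031423.9, the SERCA2b form found in most tissues), whose end lies 2826 bases upstream. A site at position 122456332 lies 8 bases past the end of the longer form and was internal by the rule above. With 24 bases allowed past any coding transcript, the shares were 99.2% and 79.1% in libraries labelled AMPKα1 KO and 81.1% and 79.9% in WT, and the groups overlapped. Between the ends of both forms, shown among the sequences above, the longer form took 12.4% and 16.4% of the reads in libraries labelled AMPKα1 KO (of 596 and 220 reads) against 41.9% and 49.8% in WT (of 86 and 235). Among the AMPKα2 mice it took 5.88% and 2.86% in KO (4 and 3 reads) against 11.3% and 7.55% in WT (6 and 4 reads). KO lay below WT in both models, though in the AMPKα2 model these counts were low and the 95% Wilson intervals overlapped. This ratio was chosen after its values were seen, and a comparison of 2 with 2 libraries cannot go below a two-sided exact permutation p of 0.333. The usage test of the longer form's site gave a log2 usage of -1.06 (SE 1.22, adjusted p = 0.928) in libraries labelled AMPKα1 KO and -0.74 (SE 0.57, adjusted p = 1.0) in AMPKα2 KO by edgeR.

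**Figure D5:**
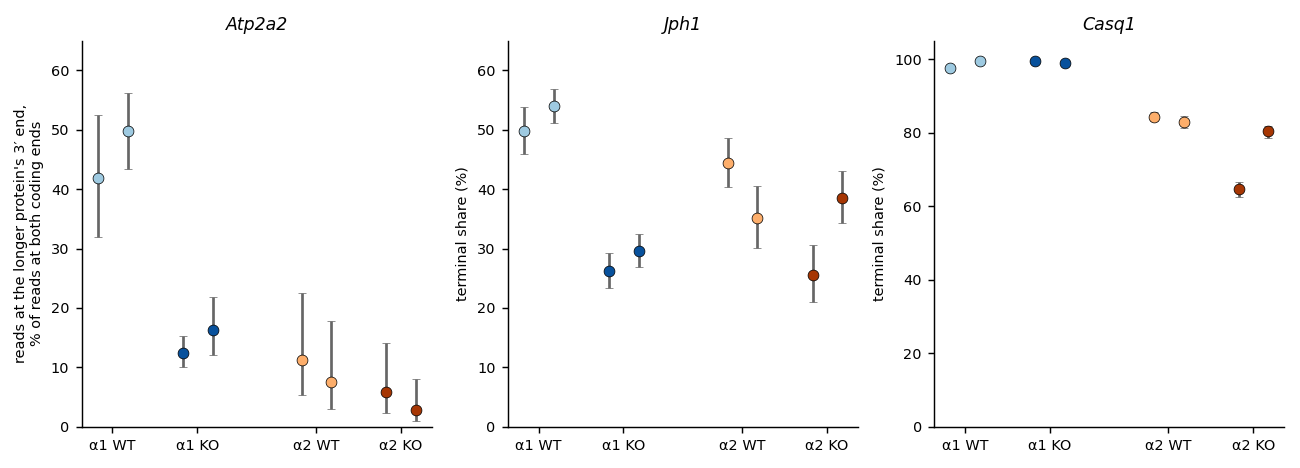
Left, reads at the 3′ end of the longer Atp2a2 form as % of reads at the ends of both coding forms; middle and right, terminal share (%) of Jph1 and Casq1; 1 point per library with its 95% Wilson interval (counting error only). The points labelled AMPKα1 KO of Atp2a2 (12.4% and 16.4%) and Jph1 (26.2% and 29.6%) lie below their WT points, and 1 AMPKα2 KO library of Casq1 stands at 64.6%.

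In the AMPKα2 model 5 members had both KO libraries below both WT libraries in terminal share (18.4% of 2338 genes had that order) and 0 had both above (8.85%). Ryr1 stood at 27.1% and 27.6% in KO against 33.4% and 34.5% in WT. Casq1 stood at 64.6% and 80.3% against 84.4% and 83.0%, and Pvalb at 87.4% and 77.0% against 89.8% and 91.8%. For Srl the values were 73.3% and 79.7% against 79.9% and 84.5%, where the nearest libraries were within each other's intervals, and for Atp2a1 9.84% and 19.6% against 22.1% and 24.3%. Which KO library was farther from WT varied, KO 1 for Casq1, Srl and Atp2a1 and KO 2 for Pvalb. With this, the Atp2a1 value of 0.81 over all sites became 0.02 (SE 0.25, adjusted p = 0.989 by edgeR) over its terminal site, and that of Jph1 went from 0.33 to 0.01. Over terminal sites Atp2a2 stood at 1.11 (SE 0.32, adjusted p = 0.301) and Casq2 at 0.72.

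No member site passed an adjusted p of 0.1 in the site test or the usage test of either model by edgeR. In the AMPKα1 model 0 of 179 tested sites passed, 11 (6.15%) at an unadjusted p under 0.05 where 3.07% of all sites were, and 2 of 44024 sites in all (0.00454%). Of the AMPKα2 sites 0 of 295 passed, 39 (13.2%) at an unadjusted p under 0.05 where 7.60% of all sites were, and 13 of 23218 in all (0.056%). The usage tests had 5 (2.79%) and 12 (4.07%) member sites at an unadjusted p under 0.05, near the 2.27% and 3.21% of all sites, and called 2 of 33281 (0.00601%) and 19 of 14707 sites (0.129%) in all. In AMPKα2 KO 237 of the 295 member sites had a positive log2 fold change, with a median of 0.70 against 0.01 over all sites. This was not particular to the members. Positive values stood at 104 of 130 fast-fiber sites (median 0.80), 49 of 50 slow-fiber sites (1.19) and 21 of 25 general muscle sites (1.05). The same held for 80 of 93 fibroblast sites (0.53), against 108 of 178 sites of the other calcium genes (0.10) and 0 of 6 macrophage sites. The sites of a gene share its RNAs and are not independent.

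DESeq2 called 2 member sites in each model, against 1.37% and 2.16% of all sites that received an adjusted p. In AMPKα2 KO they were a coding-exon site of Atp2a1 (chr7, position 126448706) and an intronic site of Ryr1 (position 29043842). The Atp2a1 site had 625 and 1044 reads in KO against 419 and 286 in WT (log2 fold change 1.52, SE 0.31, adjusted p = 0.409 by edgeR and 0.026 by DESeq2). The Ryr1 site had 49 and 350 reads against 23 and 28, so that KO 2 carried most of the reads (3.01, SE 0.74, adjusted p = 0.504 by edgeR and 0.00451 by DESeq2). In libraries labelled AMPKα1 KO they were intronic sites of Srl (chr16, position 4488698) and Trdn (chr10, position 33447086), which had 0 reads in both KO libraries against 77 and 22 and against 51 and 32 in WT (adjusted p = 0.0408 and 0.0725 by DESeq2, 0.543 for both by edgeR, and 0.430 and 0.446 without KO 2). In libraries labelled AMPKα1 KO sites often had reads in 1 mouse alone. Among member sites with at least 50 reads in 1 of the KO libraries, 12 of 84 (14.3%) had 0 in the other, against 2 of 82 in AMPKα1 WT and 0 of 80 and 0 of 77 in the AMPKα2 groups. Over all APSs these shares were 30.4%, 5.09%, 0.293% and 0.318%. The spread between mice, as the biological coefficient of variation of gene sums, was 104% for AMPKα1 and 26.2% for AMPKα2 libraries.

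Of the 8 antisense sites, the one opposite Casq1 (chr1, position 172210150) had 209 reads in AMPKα2 WT 1, 4 in WT 2, 3 and 0 in KO and 0 in all AMPKα1 libraries. The other 7 had at most 46 reads in any library.

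Between the WT groups, levels depended on the scaling. With TMM over the 4 WT libraries 2 members passed an adjusted p of 0.1 by edgeR (11.8% of 13027 genes did). Casq2 was higher in the AMPKα1 WT mice, with 298 and 843 reads against 48 and 38 (log2 fold change 1.84, SE 0.39, adjusted p = 0.0483), and stayed so with library totals (3.49). Ryr1 was lower (-1.62, SE 0.31, adjusted p = 0.0349), but with library totals the difference was -0.01. Strain, age and batch cannot be told apart here.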

How the data were processed

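The authors trimmed leading Ts from the WTTS-seq reads, mapped them with TMAP to the mouse genome (GRCm38.p5 per the labels), clustered read starts into APSs and assigned genes with Cuffcompare, so that every APS listed has 16 or more reads in all. The deposited table holds whole-number read counts per APS in 8 libraries. It was tested here as deposited. Counts were summed per gene symbol. For KO against WT, edgeR 4.0.16 (R 4.3.3) fitted each model alone, with TMM scaling and a minimum of 16 reads over the model's 4 libraries. Benjamini-Hochberg adjustment ran over all features. The difference between the models' effects was fitted over all 8 libraries, with a minimum of 16 reads over them. That fit shares 1 spread per gene between the models, although their biological coefficients of variation were 104% and 26.2%. The study's threshold of 0.1 was kept. diffSpliceDGE tested site usage, and DESeq2 1.42.0 was an alternative, because 2 mice per group make the choice of dispersion matter. Scripts were tested on simulated counts. PCR duplicates could not be removed, so counts may overstate independent molecules. An internal read can come from a tail or from priming at A-rich sequence, and these counts do not separate them. Where the next 30 bases could be read from a transcript, 3 of 84 internal and 5 of 28 terminal member sites were A-rich. Over all protein-coding genes 847 of 3661 internal and 2260 of 9686 terminal sites were. The internal sites of Ryr1 and Pvalb with the most reads were both A-rich. Intronic stretches were not read, and the source of the internal reads was not tested.

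The members and gene lists were chosen with earlier results of these data known. Named sites were each member's terminal and internal APS with the most reads and any APS called by a test; the sites called by DESeq2 alone, the Atp2a2 ends and the antisense Casq1 site were added after their values were seen. From the other calcium genes, those called or with the 3 lowest p-values per model were named, and Cacna2d1 was added after its value was seen. Depth per library (2311242 to 3549156 reads) limits low genes to a floor of 3 reads. Alternatives covered scaling, filters, DESeq2, pooling all 8 libraries, strand, scaffolds, a replicate block, each library left out and the definition of a terminal site. Those added later were terminal sites alone, the 24-base tolerance, library totals for the separation of levels and the WT comparison.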

Additional observations from a re-analysis of the deposited data

How the results depend on the processing

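The limits are 2 mice per group, a depth at which Casq2 and Atp2a2 rest on few reads in the AMPKα2 model, and models that cannot be told apart from strain, age and batch. Where counts moved, the cause was not tested. Counts of members called are given below without the number tested in each setting. They therefore do not compare the members with all features.

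With DESeq2 the AMPKα1 model gave 115 genes and 218 APSs (2 of members), the AMPKα2 model 96 APSs (2 of members), and the difference between models 172 genes. With all 8 libraries in 1 fit the AMPKα1 model gave 83 genes and 432 APSs (3 of members) and the AMPKα2 model 4 genes and 7 APSs. Without a filter on low counts there were 4 APSs in the AMPKα1 model, and 376 genes (1 member, Atp2a2) and 557 APSs (11 of members) in the AMPKα2 model. With filterByExpr the AMPKα1 model gave 0 APSs and 1 site by usage, the AMPKα2 model 1 member site by usage (in Trdn), and the difference between models 5 genes. Library totals gave 160 genes in the AMPKα2 model, and 5986 genes (7 members) between the WT groups. With terminal meaning within 2 kb of the 3′-most APS, the median terminal share of the members was 52.7%.

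Replicate numbers did not pair the mice (correlation of replicate differences 0.0295 for AMPKα1 and -0.00489 for AMPKα2). A replicate block gave 1 site by usage in the AMPKα1 model, 83 genes, 520 APSs (9 of members) and 1 member site by usage in the AMPKα2 model, and 0 genes for the difference between models.

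Casq1 in the AMPKα2 model turned from 0.16 to -0.10 with library totals and to -0.043 over terminal sites. Leaving out 1 library at a time, the AMPKα1 model gave 0 to 170 APSs (0 to 3 of members, all 3 without WT 2: the Atp2a1 end and 2 Trdn sites) and 0 to 2 sites by usage. The AMPKα2 model gave 26 to 89 genes, 0 to 76 APSs and 1 to 24 sites by usage (0 to 2 of members, both without KO 1, in Ryr1 and Trdn), and the difference between models 0 to 542 genes. Log2 fold changes then ranged from -1.12 to 0.14 for Cacna1s and from -0.002 to 1.20 for Atp2a2 in the AMPKα1 model. In the AMPKα2 model they ranged from -0.094 to 0.39 for Trdn, from -0.23 to 0.47 for Casq1, from -0.57 to 0.043 for Pvalb and from -0.23 to 0.012 for the Atp2a1 end. The differences between models ranged from -0.26 to 0.70 for Casq2, from -0.32 to 1.05 for Atp2a2 and from -0.035 to 0.55 for Pvalb. No other result that was recomputed changed direction.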

Other observations

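The genes whose log2 CPM over the 8 libraries (TMM over all 8, prior count 2) was most like the mean standardized level of the 10 members were Abhd8 (Pearson r 0.977), Gm39075 (0.973), Map7 (0.972), Mapkap1 (0.972) and Dip2a (0.97), among 6483 genes with a mean of at least 10 CPM. Each had at most 80 reads in any library, and Map7 and Dip2a had 0 reads in at least 1. The 8 libraries share 2 models that stand apart, and the values are a description.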
